A study of Mus musculus with 6 samples.

Results

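Heat shock and chaperone genes were followed in the hypothalamus of NS-DADm and wild-type (WT) mice. The 10 genes were chosen by name and not by their values, though with earlier results of these data known. They were Hspa1a, Hspa1b, Hspa8, Hspa5, Hsp90aa1, Hsph1, Dnajb1, Hspb1, Cryab and Bag3, out of 24513 genes in the count tables. All 10 passed the filter on low counts, which kept 15894 genes. RNA was sequenced from whole hypothalamus, which in the brain governs appetite, heat balance and the pituitary. There were 3 NS-DADm and 3 WT mice, all C57BL/6 and 3 to 4 months old, with 1 library per mouse. The labels give the genotype by name only. From background knowledge of this line, both nuclear receptor corepressors, NCOR1 and SMRT, are mutated in the domain through which they activate the histone deacetylase HDAC3. The mutations are known to be carried in the germ line, so every cell type of the tissue carries them. The sex of the mice is not given in the labels.

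Chaperones bind proteins that are being made, moved or damaged and help them fold or hand them on for degradation. HSP70 proteins take up unfolded stretches with the help of J-domain partners such as DNAJB1, HSP110 proteins such as HSPH1 reload HSP70 with ATP, and HSP90 finishes the folding of kinases and steroid receptors. Small heat shock proteins hold unfolded proteins in large assemblies. In resting brain the constitutive forms, such as Hspa8, are abundant, whereas Hspa1a and Hspa1b are known for their strong induction by the heat shock factor HSF1 after heat or other protein damage.

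Of the 10 genes, 1 passed the threshold. Hsph1 fell in NS-DADm mice to 0.86 of its WT level, and no gene rose. The threshold was an adjusted p under 0.05 in the quasi-likelihood test of edgeR, with Benjamini-Hochberg (BH) adjustment over all genes tested. In the same fit, 91 of 15894 genes were called lower (0.573%) and 13 higher (0.0818%), 0.654% in all. At an unadjusted p under 0.05, 3 of the 10 genes were lower and 0 higher, against 6.46% and 4.4% of all genes. The DESeq2 Wald test and limma voom each called the same gene and no other of the 10. The median log2 fold change of the 10 genes was -0.09, against 0.0040 over all genes tested, and 8 of the 10 had a fitted value below 0, as did 48.4% of all genes. With upper quartile factors or library totals alone, which shifted the median of all genes to 0.016 and 0.017, 6 of the 10 genes lay below 0. Neither of these settings called Hsph1 (edgeR, BH adjusted p = 0.065 and 0.073), which stood just inside the threshold in the main fit (0.0497).

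Reads on genes numbered 24.2 to 27.5 M (units of 1e6 reads) per NS-DADm library and 26.5 to 27.6 M per WT library. Pairs of libraries within a group differed by 3.30 to 9.98 times the counting noise (chi-square per degree of freedom), so none was a repeat of another. All 12 hypothalamus markers examined had reads in every library, and their sum was 704 to 830 CPM (normalised read counts per 1e6 reads) in NS-DADm libraries against 676 to 737 CPM in WT libraries. Among them 1 was called higher, Trh, for thyrotropin-releasing hormone (log2 fold change 0.26). Thalamus lies beside the hypothalamus, and 12 of 12 of its markers had every NS-DADm library below every WT library, 5 of them called lower (Lef1, Rgs16, Plekhg1, Slitrk6 and Plcb4). Of all genes tested, 8.93% had every NS-DADm library lower and 0.573% were called lower. The marker lists were put together with earlier results of these data known, so such counts are a description. Summed thalamus markers were 342 to 381 CPM in NS-DADm mice, against 564 to 899 CPM in WT mice. Summed anterior pituitary markers, with 0 of 9 at 0 in any library, reached 2021 CPM in NS-DADm 2 and 199 to 202 CPM in the other NS-DADm libraries, against 39.7 to 111 CPM in WT libraries. In whole tissue, fewer cells of a type and less RNA per cell cannot be told apart.

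Levels per exonic length set the 10 genes in an order. Hspa8 led with 494 ± 9.8 RPKM (reads per kb of exon and 1e6 reads; mean ± SD, n = 3) in NS-DADm and 525 ± 0.86 RPKM in WT mice. Hsp90aa1 followed with 355 ± 3.2 RPKM in NS-DADm and 378 ± 11 RPKM in WT mice. Hspa5 stood at 90.2 ± 2.6 RPKM in NS-DADm and 90.7 ± 1.4 RPKM in WT mice. Next came Hsph1 with 42.4 ± 0.72 RPKM in NS-DADm and 49.2 ± 1.0 RPKM in WT mice. Cryab had 37.9 ± 3.7 RPKM in NS-DADm and 41.7 ± 2.1 RPKM in WT mice. Dnajb1 had 18.9 ± 0.79 RPKM in NS-DADm and 18.9 ± 1.8 RPKM in WT mice, below every library of Cryab. Bag3 and Hspb1 lay at 4.14 ± 0.22 and 3.13 ± 0.77 RPKM in NS-DADm mice, and at 4.82 ± 0.51 and 4.49 ± 1.6 RPKM in WT mice. Hspa1a and Hspa1b were at the bottom. Hspa1a measured 1.20 ± 0.19 RPKM in NS-DADm and 1.06 ± 0.15 RPKM in WT mice, and Hspa1b 0.53 ± 0.081 RPKM in NS-DADm and 0.41 ± 0.12 RPKM in WT mice. Bag3 and Hspb1 were the only neighbours in this order whose libraries overlapped, and they did so in both groups. Hspa8 and Hsp90aa1 together took 80.8 to 81.3% of the reads of the 10 genes in NS-DADm and 80.7 to 81.1% in WT libraries.

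**Figure D1:**
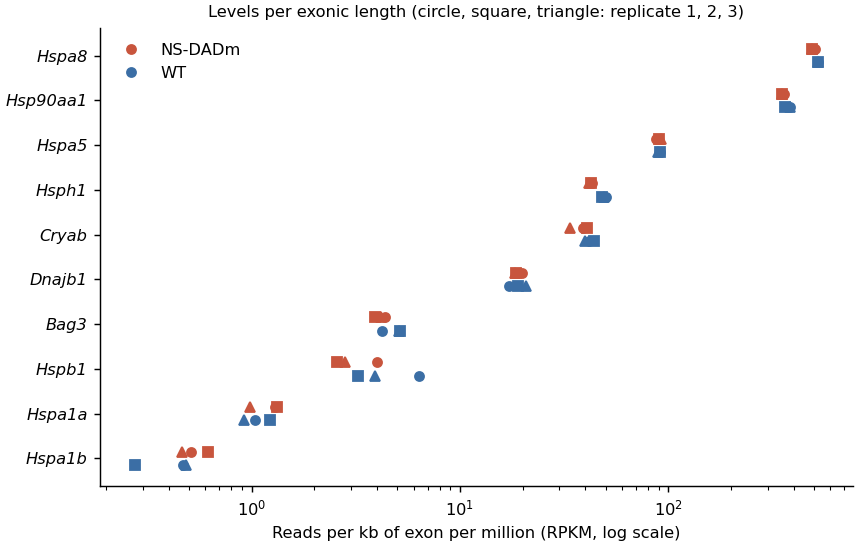
Level of each gene per exonic length (RPKM, log scale) in the 3 NS-DADm (red) and 3 WT (blue) libraries, 1 symbol per mouse. Hspa8 and Hsp90aa1 lie above 350 RPKM, and Hspa1a and Hspa1b below 1.4 RPKM, in both groups.

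These levels rest on reads that aligned to 1 place only, and several of the genes have near copies. Of the 50-base stretches in Hspa1a transcripts, 66.3% also occur in transcripts of another gene, most of them in Hspa1b, and 62.3% of those of Hspa1b occur in Hspa1a. The share was 47.5% for Hsp90aa1, 39.4% for Hspa8 and 50.1% for Hspb1, for which the predicted or pseudogene entries Gm12346, Gm15459 and Hsp25-ps1 held the most. It was 0 of 7500 stretches for Hsph1, and 0 for Hspa5 and Bag3. Values of Hspa1a, Hspa1b, Hspa8, Hsp90aa1 and Hspb1 are therefore uncertain as levels, whereas the called gene shares no such stretch with another annotated transcript.

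Hsph1 encodes an HSP110 protein of the cytosol, which exchanges the nucleotide of HSP70 and, with it, can pull apart aggregates. The gene lies on chromosome 5 (149614287 to 149636376, minus strand, mm10). It measured 312, 310 and 302 CPM in NS-DADm 1, 2 and 3, against 364, 349 and 358 CPM in WT 1, 2 and 3. The groups did not overlap, and the gap between them was wider than the range within either. The mean was 308 ± 5.2 CPM in NS-DADm mice, against 357 ± 7.3 CPM in WT mice (SD, n = 3 each). The log2 fold change was -0.21 ± 0.04 (SE), a ratio of 0.86 with a 95% interval of 0.81 to 0.92 (edgeR, BH adjusted p = 0.0497).

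This p stood just inside the threshold, and Hsph1 ranked last of the 104 genes called. The log2 fold change stayed between -0.23 and -0.20 when single libraries were left out, but the call was lost without NS-DADm 1, 2 or 3 (edgeR, BH adjusted p = 0.10, 0.19 and 0.32) and without WT 2 or 3 (0.052 and 0.20). It was kept without WT 1 (0.026). It was also lost with upper quartile factors (0.065), with library totals alone (0.073) and with a minimum mean of 1 CPM (0.055). With thalamus marker level (their mean log2 CPM) added to the model, the log2 fold change was -0.15 (edgeR, BH adjusted p = 0.71). That level itself separated the groups, at 3.86 to 4.24 in NS-DADm libraries against 4.93 to 5.79 in WT libraries, and the fit with it kept 0 of the 104 calls. Genotype and thalamus marker level therefore cannot be told apart here, and the part of that level in this result was not tested.

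**Figure D2:**
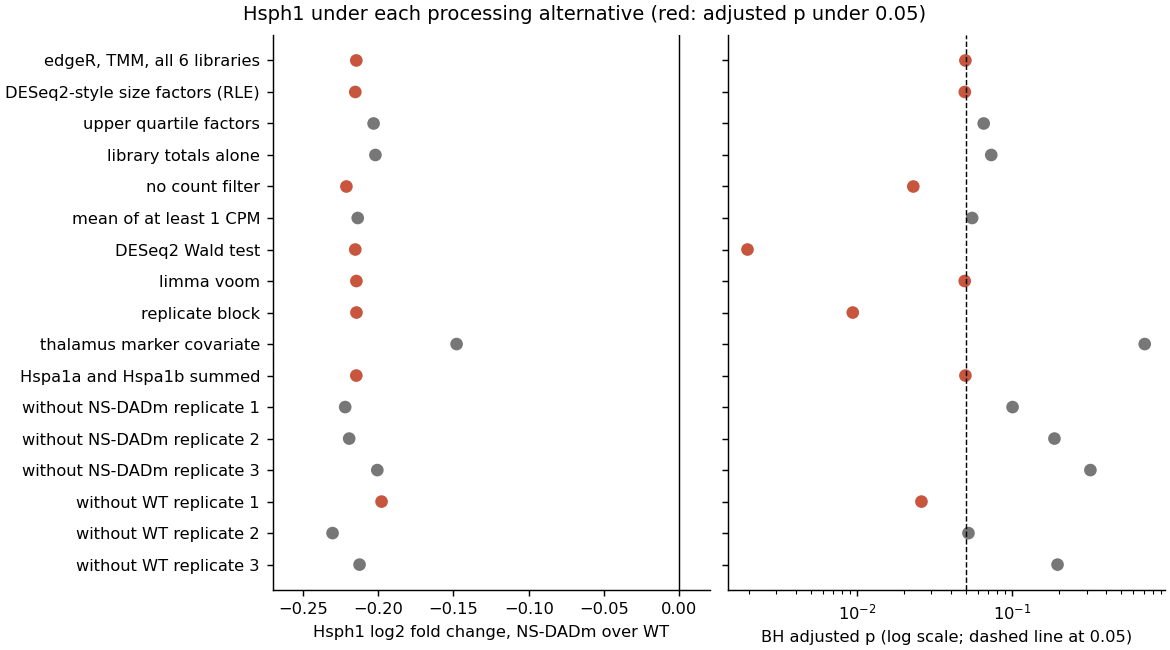
Hsph1 under each way of processing: log2 fold change of NS-DADm over WT (left) and BH adjusted p on a log scale with the threshold of 0.05 dashed (right), where red marks settings that call the gene. All values lie below 0, from -0.23 to -0.15, while the adjusted p runs from 0.0020 to 0.71.

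The promoter of Hsph1 is shown because it alone among the promoter windows matched for these genes holds an exact 3-unit heat shock element. Trimers of heat shock factors bind such elements. Only exact matches were searched, so an element with an altered base in a unit was not counted in any window. RefSeq windows (GRCm38.p6) of 250 bases before to 50 bases after an annotated start were matched for 7 of the 10 genes. Hspa8, Hsp90aa1 and Cryab had no match. The strict motif was GAANNTTCNNGAA or its reverse complement TTCNNGAANNTTC, and the 2-unit motifs were GAANNTTC and TTCNNGAA, which read the same on both strands and lie inside the 3-unit motif. The 3-unit motif occurs in 198 of 32851 windows (0.603%) of all genes, and either 2-unit motif in 15.1%. One of the Hsph1 windows (chr5:149636266-149636565, minus strand) is given 5′ to 3′, with matches in capitals.
Hsph1: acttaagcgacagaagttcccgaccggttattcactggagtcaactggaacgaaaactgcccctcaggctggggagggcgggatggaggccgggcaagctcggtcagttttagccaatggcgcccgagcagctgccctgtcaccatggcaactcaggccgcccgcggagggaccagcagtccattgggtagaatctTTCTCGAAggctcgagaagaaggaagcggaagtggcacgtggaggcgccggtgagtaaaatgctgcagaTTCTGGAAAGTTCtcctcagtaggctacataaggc
The 3-unit match TTCTGGAAAGTTC spans positions 16 to 28 after this start, counted from 1 at the start, and a separate 2-unit match TTCTCGAA lies at -54 to -47. A match is a description of the sequence and not evidence of binding.

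The other cytosolic chaperones of high level had smaller fitted values, none past the threshold. Hspa8, the constitutive HSP70 that also strips clathrin from vesicles at synapses (chromosome 9, 40800984 to 40810087), measured 2172, 2097 and 2103 CPM in NS-DADm 1, 2 and 3, against 2255, 2262 and 2261 CPM in WT 1, 2 and 3. Its log2 fold change was -0.09 ± 0.04 (SE), a ratio of 0.94 with a 95% interval of 0.886 to 0.998 (edgeR, BH adjusted p = 0.44). All 3 NS-DADm libraries lay below all 3 WT libraries, and the WT libraries were nearly level with each other. Hsp90aa1, the stress-responsive HSP90 of the cytosol (chromosome 12, 110690605 to 110702728), measured 1409, 1388 and 1387 CPM in NS-DADm 1, 2 and 3, against 1503, 1434 and 1519 CPM in WT 1, 2 and 3. Here too the groups did not overlap, with a log2 fold change of -0.09 ± 0.04 (SE; edgeR, BH adjusted p = 0.47). With the thalamus covariate its log2 fold change was 0.0084 and that of Hspa8 -0.07.

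Hsph1, Hspa8 and Hsp90aa1 were thus the 3 of 10 genes with every NS-DADm library below every WT library, and no gene had the reverse. Of all genes tested, 8.93% had every NS-DADm library lower and 7.86% every NS-DADm library higher.

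**Figure D3:**
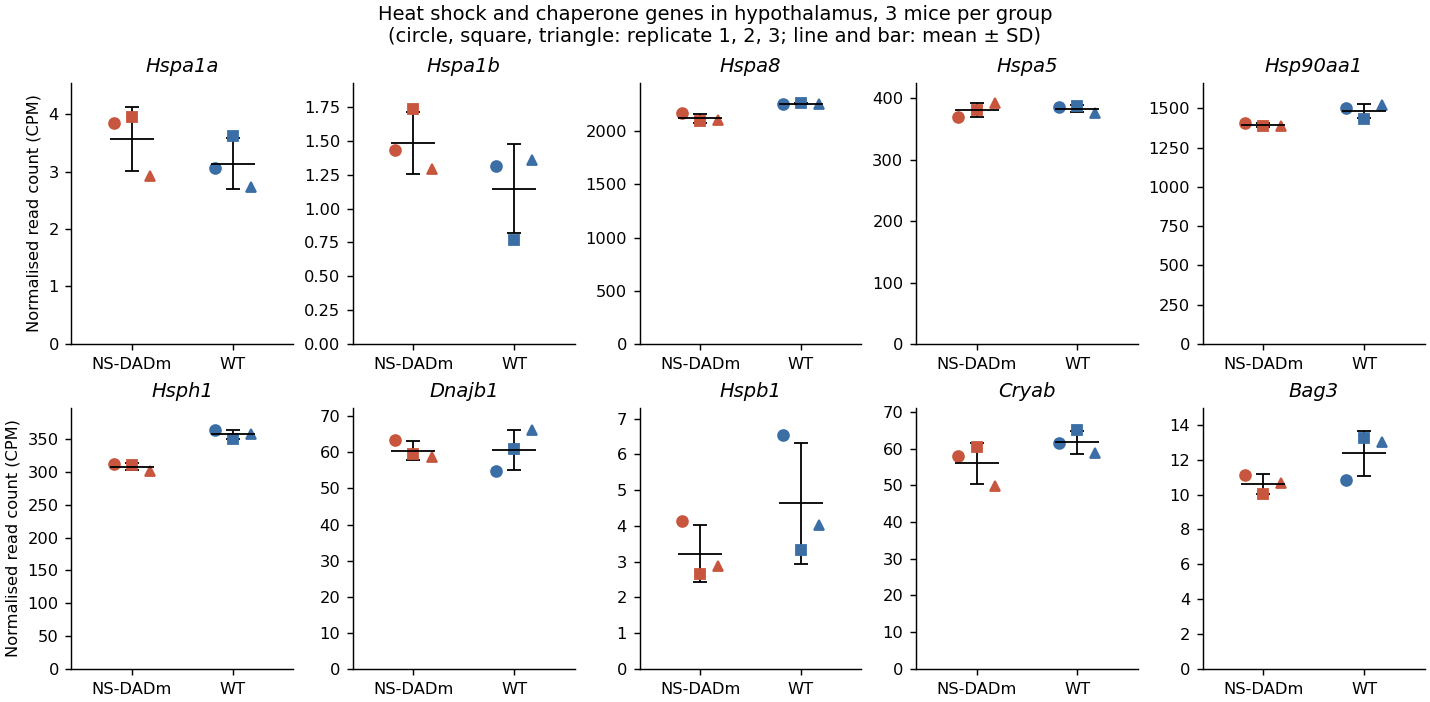
Normalised read counts (CPM, axes from 0) of the 10 genes in each library, NS-DADm in red and WT in blue, with mean and SD bars. Hspa8, Hsp90aa1 and Hsph1 have all NS-DADm points below the WT points, and the groups of the other 7 genes overlap.

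The stress-induced HSP70 genes did not pass the threshold and rested on few reads. Hspa1a and Hspa1b lie 9951 bases apart on the minus strand of chromosome 17 (34969190 to 34972156 and 34956436 to 34959238), each as a single exon. Hspa1a had 94, 109 and 77 counts in NS-DADm 1, 2 and 3, against 84, 99 and 72 in WT 1, 2 and 3. Hspa1b had 35, 48 and 34 counts in NS-DADm 1, 2 and 3, against 36, 21 and 36 in WT 1, 2 and 3. The groups overlapped for both genes, and the lowest value of Hspa1b, 0.77 CPM in WT 2, stood apart from the other 5 libraries. Log2 fold changes were 0.19 ± 0.16 and 0.38 ± 0.24 (SE; edgeR, BH adjusted p = 0.76 and 0.64), with 95% intervals of the ratio of 0.89 to 1.45 and 0.90 to 1.87. Ratios within those intervals are compatible with these counts, and the intervals are not limits of detection. Summed as 1 gene, the pair had a log2 fold change of 0.24 (edgeR, BH adjusted p = 0.58). In the GENCODE annotation, Hspa1a is overlapped over 2225 bases by Gm20481 on the opposite strand, and since the strand setting of the counting is not given, reads of either strand cannot be told apart.

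The promoters of this pair are shown because they are almost the same sequence. The windows (GRCm38.p6, minus strand, chr17:34972107-34972406 for Hspa1a and chr17:34959189-34959488 for Hspa1b) are identical at 296 of 300 positions. Capitals mark the 2-unit heat shock element.
Hspa1a: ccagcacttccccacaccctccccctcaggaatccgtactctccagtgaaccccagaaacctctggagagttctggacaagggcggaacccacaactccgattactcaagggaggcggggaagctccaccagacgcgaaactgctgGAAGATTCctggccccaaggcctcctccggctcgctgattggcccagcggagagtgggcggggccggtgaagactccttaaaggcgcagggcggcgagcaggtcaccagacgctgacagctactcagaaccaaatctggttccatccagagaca
Hspa1b: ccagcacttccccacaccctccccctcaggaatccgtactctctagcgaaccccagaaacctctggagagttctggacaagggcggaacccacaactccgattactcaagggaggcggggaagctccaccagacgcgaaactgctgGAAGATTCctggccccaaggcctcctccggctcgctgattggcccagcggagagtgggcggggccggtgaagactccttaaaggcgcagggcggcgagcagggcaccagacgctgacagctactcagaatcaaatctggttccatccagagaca
In both, the match GAAGATTC lies at -104 to -97, and the strict 3-unit motif was not found in the window. Counts of Hspa1a were 2.26 to 2.69 times those of Hspa1b in NS-DADm libraries and 2 to 4.71 times in WT libraries.

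Hspa5 encodes BiP, the HSP70 of the endoplasmic reticulum, which rises when proteins fail to fold there (chromosome 2, 34771970 to 34777547). It measured 370, 382 and 392 CPM in NS-DADm 1, 2 and 3, against 387, 387 and 376 CPM in WT 1, 2 and 3. The groups overlapped, and the 95% interval of the ratio was 0.93 to 1.06 (log2 fold change -0.01 ± 0.04, SE; adjusted p = 0.97 by edgeR with BH). Dnajb1, the J-domain partner of cytosolic HSP70 (chromosome 8, 83608193 to 83612653), measured 63.4, 59.4 and 58.6 CPM in NS-DADm 1, 2 and 3, against 54.9, 61.0 and 66.2 CPM in WT 1, 2 and 3. The NS-DADm libraries lay inside the range of the WT libraries, with a 95% interval of the ratio of 0.90 to 1.10 (edgeR, BH adjusted p = 0.99). For both genes the sign of the fitted value changed with the scaling.

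**Figure D4:**
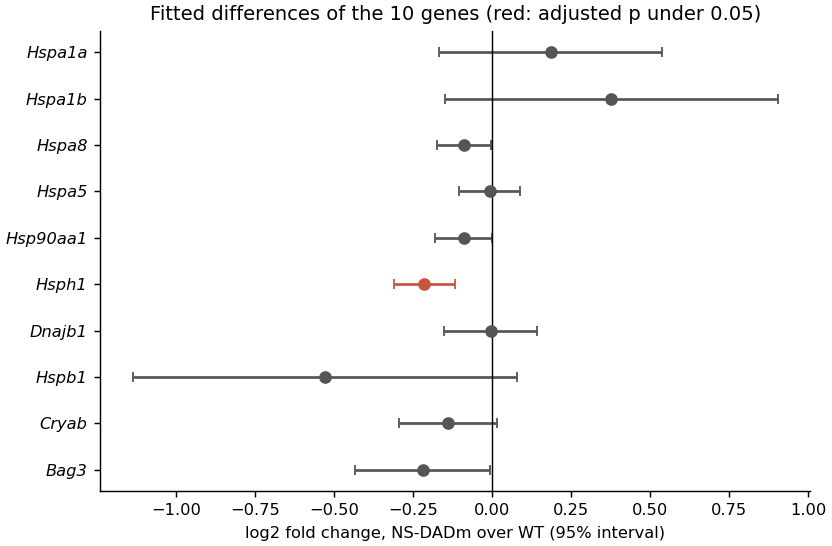
Fitted log2 fold change of NS-DADm over WT with its 95% interval for each of the 10 genes, with Hsph1 (adjusted p under 0.05) in red. Intervals are narrowest for Hspa8, Hsp90aa1, Hsph1 and Hspa5 and widest for Hspb1 and Hspa1b.

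The small heat shock proteins and the co-chaperone that works with them had fitted values below 0, none past the threshold. Hspb1, which holds unfolded proteins and steadies actin filaments (chromosome 5, 135887919 to 135889563), had 101, 73 and 76 counts in NS-DADm 1, 2 and 3, against 179, 91 and 106 in WT 1, 2 and 3. Its log2 fold change was -0.53 ± 0.27 (SE), a ratio of 0.69 with a 95% interval of 0.45 to 1.06 (edgeR, BH adjusted p = 0.53). The groups overlapped, and WT 1 stood highest with 6.54 CPM against 3.33 and 4.01 CPM in WT 2 and 3. Without WT 1 the log2 fold change of Hspb1 was -0.19, and with the thalamus covariate it was 1.01, neither past the threshold. Summed markers of endothelial and mural cells were also highest in WT 1, at 189 CPM against 156 and 153 CPM in WT 2 and 3. In NS-DADm libraries they were 139 to 148 CPM. Of these 9 markers 6 had fitted values below 0 and 3 above, Pecam1 (0.06), Acta2 (0.21) and Myh11 (0.28), and 0 were at 0. The 1 marker called lower, Rgs5, was level in WT 1, 2 and 3 at 29.3, 28.8 and 29.1 CPM, unlike Hspb1. Summed thalamus markers were highest in WT 1 as well, at 899 CPM against 564 and 733 CPM in WT 2 and 3. In NS-DADm 1, 2 and 3 they were 381, 342 and 381 CPM. The part of either set of markers in the Hspb1 values was not tested.

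Hspb1 varied most among the 10 genes, with a range of 1.16 on the log2 scale over the 6 libraries. Among the 10523 other genes that averaged 10 CPM or more, the 5 nearest to it in pattern were Ptk2b, Mgat5b, Lmo7, Syndig1l and Mmp14. The measure was the root mean square difference of centred log2 CPM over the 6 libraries, which was 0.11 for Ptk2b and 0.13 for Mmp14. Like Hspb1, Ptk2b was highest in WT 1, with 44.68, 34.35 and 35.03 CPM in NS-DADm 1, 2 and 3, against 70.7, 46.1 and 52.1 CPM in WT 1, 2 and 3.

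Cryab encodes alpha-B crystallin, a small heat shock protein that oligodendrocytes and astrocytes carry in brain (chromosome 9, 50751325 to 50756636). It measured 57.9, 60.3 and 49.8 CPM in NS-DADm 1, 2 and 3, against 61.4, 65.0 and 58.7 CPM in WT 1, 2 and 3. NS-DADm 3 was lowest and the groups overlapped through NS-DADm 2 (log2 fold change -0.14 ± 0.07, SE; adjusted p = 0.52 by edgeR with BH). Summed oligodendrocyte markers had the same lowest and highest libraries, with 5122, 5264 and 4578 CPM in NS-DADm 1, 2 and 3, against 5382, 5636 and 5219 CPM in WT 1, 2 and 3. Of these 10 markers 1 was called lower, Ugt8a, and 9 had fitted values below 0. The 1 above 0 was Mobp (log2 fold change 0.22), with every NS-DADm library higher. Summed astrocyte markers had another order. They were 4034, 4192 and 4217 CPM in NS-DADm 1, 2 and 3, against 4025, 4226 and 4317 CPM in WT 1, 2 and 3. The part of either set of markers in the Cryab values was not tested. The same measure of likeness was taken for each of the 10 genes, and its result for Cryab was picked out after the values were seen. The 5 nearest of all 10523 genes to Cryab were Mbp, for myelin basic protein, Cacng8, Rhog, Fam174b and Plekha2. Their distances were close together, at 0.035 for Mbp, 0.037 for Cacng8 and Rhog, and 0.038 for Fam174b and Plekha2. The gene spans of Cryab and Hspb2, introns included, overlap over 1030 bases on opposite strands, and Hspb2 had 2 to 6 counts in a library. As the strand setting of the counting is not given, it is unknown whether reads in the overlap were set aside as ambiguous.

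Bag3 encodes a co-chaperone that links HSP70 and small heat shock proteins to selective autophagy (chromosome 7, 128523616 to 128546981). It measured 11.13, 10.03 and 10.69 CPM in NS-DADm 1, 2 and 3, against 10.9, 13.2 and 13.0 CPM in WT 1, 2 and 3. NS-DADm libraries lay below WT 2 and 3, while WT 1 fell among them. The ratio was 0.86, as for Hsph1, but with a wider 95% interval of 0.74 to 0.99 (log2 fold change -0.22 ± 0.10, SE; adjusted p = 0.44 by edgeR with BH).

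Other chaperone genes were counted in 6 lists of families and co-factors, 66 of whose 68 genes were tested. None was called by edgeR, DESeq2 or limma voom. At an unadjusted p under 0.05 (edgeR), 3 of the 66 were lower and 1 higher, against 6.46% and 4.4% of all genes. Of the 66, 48 had a fitted value below 0 (72.7%, against 48.4% of all genes), with a median log2 fold change of -0.04. It was 41 of 66 (62.1%) with upper quartile factors or library totals alone, against 43.8% and 43.4% of all genes. In 12 of them every NS-DADm library lay below every WT library (18.2%, against 8.93% of all genes), and in 1 every NS-DADm library lay above (1.52%, against 7.86%). As the lists were put together with earlier results known, these counts are a description.

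The HSP90 family had its other 3 tested members below 0. Hsp90ab1, the constitutive HSP90 of the cytosol, measured 1512, 1507 and 1474 CPM in NS-DADm 1, 2 and 3, against 1639, 1605 and 1581 CPM in WT 1, 2 and 3. The groups did not overlap, and the log2 fold change of -0.10 ± 0.04 (SE) did not pass the threshold (edgeR, BH adjusted p = 0.37). Trap1, the mitochondrial HSP90, had a log2 fold change of -0.11 and did not pass either. Among 10 other HSP70 and HSP110 genes, 7 were below 0, with log2 fold changes of -0.09 for Hspa12a and -0.08 for Hspa4, an HSP110 relative of Hsph1. All 3 NS-DADm libraries were lower than the WT libraries in each of these, but none passed.

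All 10 chaperonin genes, whose products form closed folding chambers, had fitted values below 0 with TMM scaling and 7 of them with upper quartile factors or library totals, at a median log2 fold change of -0.04 with TMM. Cct7, a subunit of the cytosolic chamber, had -0.08 ± 0.04 (SE; edgeR, BH adjusted p = 0.59) and Cct4 -0.08. The 19 J-domain genes were spread on both sides, 10 below 0 and 9 above (8 below with upper quartile factors or library totals), with -0.09 for Dnaja2 and -0.08 for Dnajc6, the auxilin that helps Hspa8 uncoat vesicles. Among 19 co-chaperones, 15 were below 0. Hspbp1, a nucleotide exchange factor of HSP70, had -0.16 ± 0.07 (SE; edgeR, BH adjusted p = 0.40), and Fkbp5, a glucocorticoid-induced partner of HSP90, had 0.13 ± 0.06 (SE; edgeR, BH adjusted p = 0.44). Of the 5 tested genes in the small heat shock list, all with Hspb symbols, Hspb7 had 0.37 ± 0.36 and Hspb11 -0.13 ± 0.13 (SE). Neither passed (edgeR, BH adjusted p = 0.79 and 0.81), and Hspb7 had only 9 to 28 counts in a library. A shared symbol does not establish a chaperone role for each.

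The heat shock factor genes did not pass the threshold, with 0 of 4 called and 0 at an unadjusted p under 0.05. All 4 had fitted values above 0, from 0.01 for Hsf1 to 0.09 for Hsf5, with 0.07 for Hsf2 and 0.06 for Hsf4. Hsf1, the main activator of heat shock genes, measured 39.6, 41.0 and 39.1 CPM in NS-DADm 1, 2 and 3, against 42.7, 39.2 and 37.0 CPM in WT 1, 2 and 3. Of 17 genes of the endoplasmic reticulum stress response, 0 were called and 1 was lower at an unadjusted p under 0.05, Calr, a lectin chaperone (log2 fold change -0.11 ± 0.05, SE; adjusted p = 0.44 by edgeR with BH). Of all genes tested, 6.46% were lower at an unadjusted p under 0.05. The list's median was 0.006, against 0.0040 over all genes tested. Canx, its membrane-bound relative, had -0.08.

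Immediate early genes, which respond within minutes to activity and handling, were counted beside the stress genes. Of 11 tested, 0 were called and 3 were lower at an unadjusted p under 0.05, as were 6.46% of all genes. Their median log2 fold change was -0.30, against 0.0040 over all genes tested. Ier2 measured 2.78, 2.24 and 2.05 CPM in NS-DADm 1, 2 and 3, against 3.77, 3.11 and 3.71 CPM in WT 1, 2 and 3 (log2 fold change -0.58 ± 0.16, SE; adjusted p = 0.16 by edgeR with BH). Dusp1 had -0.30 ± 0.11 (SE; edgeR, BH adjusted p = 0.32). Their summed level was 131 to 188 CPM in NS-DADm mice, against 165 to 226 CPM in WT mice, so the groups overlapped. DESeq2 and limma voom also called 0 genes in the heat shock factor, endoplasmic reticulum and immediate early lists.

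**Figure D5:**
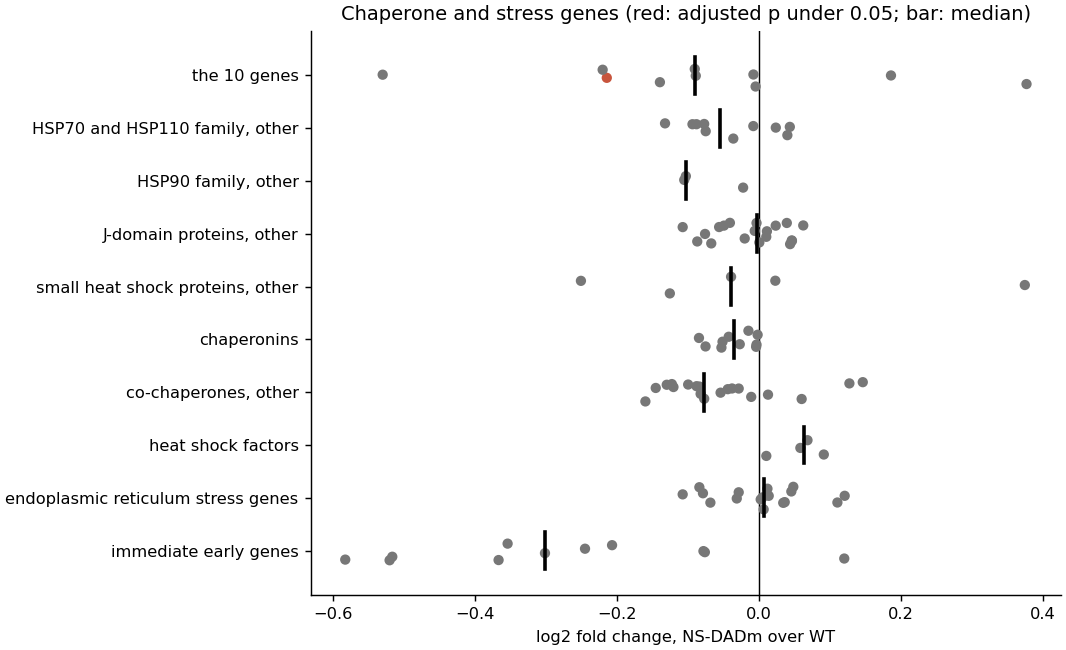
Log2 fold change of NS-DADm over WT for each tested gene of the 10 genes and of 9 chaperone and stress lists, with a bar at each median and called genes in red. Hsph1 is the only red point, and the points of the HSP90 and chaperonin lists all lie below 0 with TMM scaling, as shown (7 of 10 chaperonins with the other scalings named).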

How the data were processed

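Counts per gene symbol were deposited by the authors as raw read counts, 1 table per library. The submitters' processing notes name TopHat2 2.0.9, mm10 and HTSeq. Annotation, strand setting and library kit: not given in the sources used here. The last 5 rows of each table, classes of unassigned reads, were left out, among them alignments that were not unique (14.3 to 16.5% of counted entries). The test was edgeR's quasi-likelihood test (4.0.16, R 4.3.3) with no covariate, after filterByExpr and TMM scaling (factors 0.992 to 1.01). Each standard error is the log2 fold change over the root of F. CPM used the TMM-scaled library sizes, RPKM also the union of GENCODE M21 exons, and distances of patterns log2(CPM + 0.5). The alternatives, among them DESeq2 1.42.0 and limma 3.58.1, are given in the closing section. The 10 genes, the lists and the alternatives were chosen with earlier results of these data known. All 10 genes are named, with the 2 smallest p-values of each other list and called markers. The libraries are separate mice.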

Additional observations from a re-analysis of the deposited data

How the results depend on the processing

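The number of genes called was 203 with no count filter, 282 with DESeq2 and 8 with the thalamus marker covariate, against 104, and 5 to 312 when single libraries were left out (5 without NS-DADm 2, 8 without NS-DADm 3, 10 without WT 3, 262 without WT 2, 312 without WT 1). It was 104 with DESeq2-style (RLE) factors, 86 with limma voom and 104 with Hspa1a and Hspa1b summed, and Hsph1 alone of the 10 genes was called in each of these. Of the 10 genes, 0 were called with upper quartile factors, library totals alone, a mean of at least 1 CPM or the covariate, and 0 to 1 without single libraries. The fitted value of Hspa5 was 0.0034 with upper quartile factors and 0.0044 with library totals, and that of Dnajb1 0.0066 and 0.0081, against values below 0 with TMM. Without single libraries these ran from -0.029 to 0.015 and from -0.069 to 0.062. With the covariate, which separates the groups and so cannot be told apart from genotype, Hspa1a (-0.28), Hsp90aa1 (0.0084) and Hspb1 (1.01) changed sign. The cause was not tested. The median of the 10 genes was -0.10 to -0.07 without single libraries. Replicate numbers are shared by the groups. Same-numbered libraries deviated together with correlations of 0.12, 0.08 and -0.04, and differently numbered ones with correlations of -0.12 to 0.05. The numbers were not taken as pairs, and whether they mark pairs cannot be told from these values. With the replicate block 409 genes were called, and Hsph1 had an adjusted p of 0.0094 (edgeR). Hspa1a, Hspa1b, Hspb1 and Bag3 had 21 to 362 counts per library, which limits the differences that could be detected in them.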
